A study of Mus musculus with 6 samples.

Results

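Genes that mark brown and white fat cells were followed in the spinal cord of Dhtkd1 null and wild-type mice. The genes were taken by name: Ucp1, Retn, Adipoq, Cfd, Cidea, Fabp4 and Lep, at every non-control probe that the scanner files list under these names. They make up 7 of the 27376 gene names and 10 of the 41174 probes on the array, and they were read as a measure of fat in the dissection. Agilent single-colour arrays were hybridised with Cy3-labelled spinal cord RNA, 1 array for each of 3 Dhtkd1 null and 3 wild-type samples. All samples came from male mice of the C57BL/6 strain at 8 weeks of age. Both genotypes were kept specific pathogen-free, and the null samples carry no other allele or treatment that the labels name. The labels do not say which segment of Dhtkd1 was removed, nor that each sample is a separate animal, so p-values measure only the spread between these samples. Values are scaled intensities, in which 1000 is the 75th percentile of the array's processed signal, and differences are log2 differences, null minus wild-type.

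Fat cells store triglyceride in lipid droplets and secrete hormones, the adipokines. White adipocytes hold a single large droplet and release energy on demand, whereas brown adipocytes hold many small droplets and many mitochondria and burn fat to make heat through the proton channel Ucp1. Fat lies outside the cord itself, in the epidural space and around the vertebral column, and neurons and glia are not known to make Ucp1 or adiponectin in quantity.

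Sequences are printed for some member probes, because each value of these probes is the brightness of spots that carry exactly these bases. Those of Cidea, Cfd, Lep and the Fabp4 probe A_51_P336833, which represented its gene, are not printed. The printed sequences are given as deposited, 5′ to 3′, at their mm9 positions. The Ucp1 probe lies at chr8:85821788-85821847 (+ strand) and the Adipoq probe at chr16:23157576-23157635 (+ strand). Fabp4 and Retn had more than 1 probe, and these show how far different stretches of a transcript gave the same pattern. The printed Fabp4 probes lie at chr3:10204533-10205262 and chr3:10208442-10208501 (- strand), where the first covers 730 bases of genome with 60 bases of probe. The Retn probes lie at chr8:3656107-3656928 and chr8:3656145-3656966 (+ strand), each covering 822 bases of genome. Capitals mark the 22 bases that both Retn probes hold, so these probes are not independent of each other.
Ucp1, A_51_P426353: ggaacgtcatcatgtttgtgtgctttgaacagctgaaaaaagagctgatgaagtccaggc
Adipoq, A_51_P458451: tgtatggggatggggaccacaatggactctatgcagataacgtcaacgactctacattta
Fabp4, A_51_P336830: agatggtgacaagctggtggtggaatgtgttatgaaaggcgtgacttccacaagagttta
Fabp4, A_52_P564544: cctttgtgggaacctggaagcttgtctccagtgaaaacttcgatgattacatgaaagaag
Retn, A_52_P55972: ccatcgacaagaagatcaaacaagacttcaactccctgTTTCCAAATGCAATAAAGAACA
Retn, A_51_P233597: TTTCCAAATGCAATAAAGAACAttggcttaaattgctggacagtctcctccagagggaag

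The arrays were of like brightness, with a 75th percentile of 950 to 1055 intensity units and 78.4% to 82.0% of non-control spots well above background. Dhtkd1 was lower in all null samples at both of its probes, with 60.3, 60.4 and 55.8 in null samples against 133, 123 and 117 in wild-type samples at the first (log2 difference -1.08, limma adjusted p = 0.0922). At the second probe it had 49.7, 92.8 and 61.1 in null samples and 182, 112 and 128 in wild-type samples (-1.07, adjusted p = 0.514). The barcodes place null replicates 1, 2 and 3 and wild-type replicate 2 on slide 1, and wild-type replicates 1 and 3 on slide 2. Each difference is therefore also given within slide 1, as the 3 null arrays against the 1 wild-type array there. Slide 2 holds wild-type arrays only and gives no difference. In whole tissue, more cells of a type and more RNA per cell cannot be told apart.

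The adipocyte genes differed from array to array far more than most genes, and their null and wild-type values overlapped. Ucp1, Adipoq, Cfd and all probes of Fabp4 were highest in null replicate 2 and second highest in wild-type replicate 2. Overlap held at each of the 9 probes that were kept, and 0 of the 6 member genes tested passed an adjusted p of 0.05 with limma, as did 0% of all 21436 genes in either direction. At an unadjusted p of 0.05, 0 members passed too, beside 5.92% of all genes higher in null samples and 3.01% lower. Non-overlapping groups, which no member showed, occurred in 9.66% of genes with null higher and in 5.18% with null lower.

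**Figure D1:**
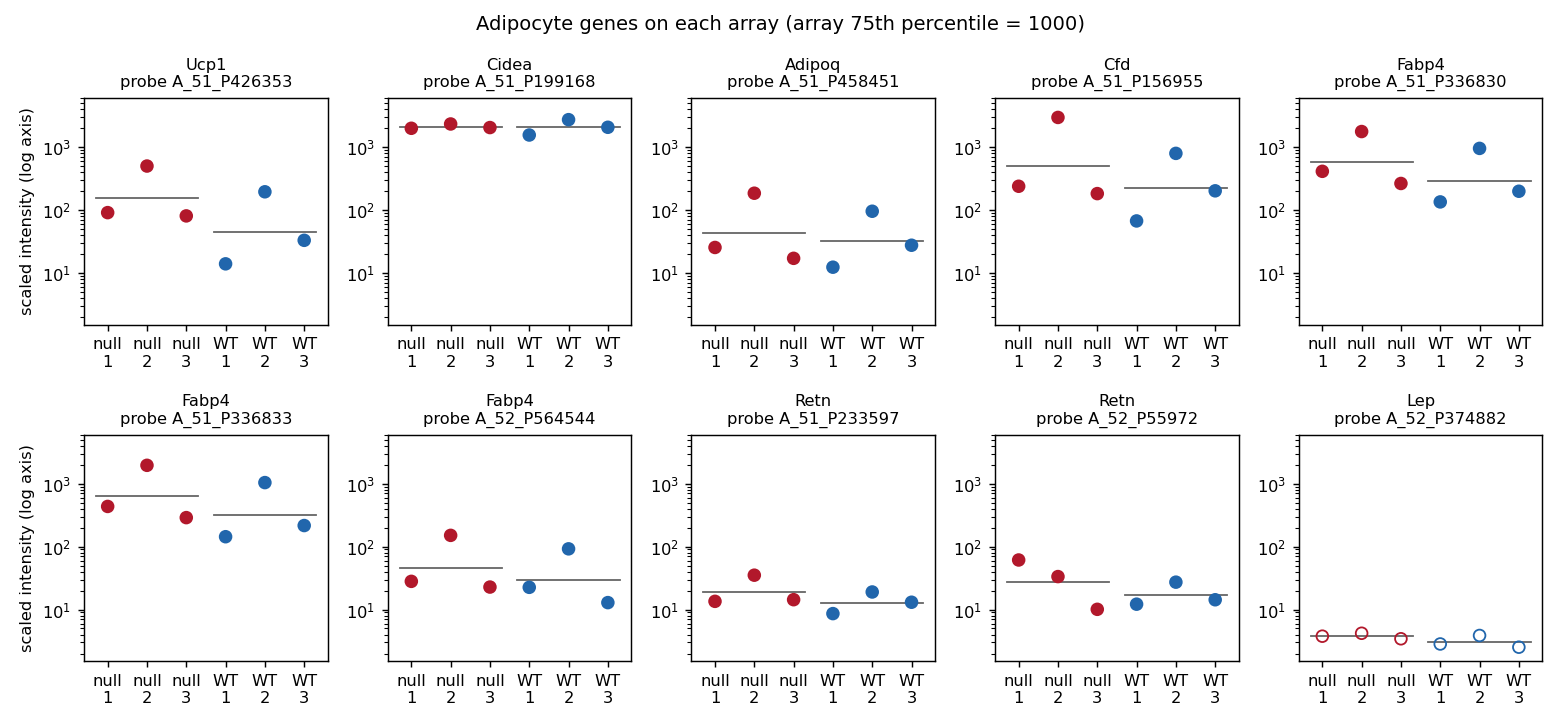
Scaled intensity of every adipocyte gene probe on each array (log axis, array 75th percentile at 1000), with null arrays in red and wild-type arrays in blue and with lines at the geometric group means. Null replicate 2 and wild-type replicate 2 stand above the other arrays for Ucp1, Adipoq, Cfd and Fabp4, Cidea varies by only 1.75-fold, and the open circles of Lep are not well above background on any array.

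Ucp1 encodes the mitochondrial proton channel that defines brown fat. Its scaled intensity was 90.5, 497 and 80.2 in null replicates 1, 2 and 3, against 13.9, 194 and 32.8 in wild-type replicates 1, 2 and 3. Null replicate 2 was highest and wild-type replicate 1 lowest, 35.8-fold apart, and wild-type replicate 2 exceeded 2 of the 3 null arrays. The log2 difference was 1.78 (SE 1.17, n = 3 per group), a 3.44-fold higher geometric mean in null samples that did not pass (limma adjusted p = 0.683). An exact 2-sided permutation test gave p = 0.3, where 3 against 3 arrays cannot go below 0.1. Within slide 1 the difference was -0.34, the opposite direction. Over both slides it became 0.94 when either null replicate 2 or wild-type replicate 1 was left out, and was 2.84 when wild-type replicate 2 was. Leaving out null replicate 2 and wild-type replicate 2 together, a choice made after seeing the values, gave 2.00 (limma adjusted p = 0.650). Those remaining arrays are all slide 1 for null and all slide 2 for wild-type, so genotype and slide cannot be told apart in that value.

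Cidea, a lipid droplet protein abundant in brown fat (probe at mm9 chr18:67527351-67527410, + strand), did not share this spread. It had 1978, 2314 and 2031 in null samples and 1546, 2711 and 2051 in wild-type samples. Cidea was bright on every array, so its small range does not show how much fat added to its signal. The null arrays lay inside the range of the wild-type arrays, with the extremes in wild-type replicates 2 and 1, 1.75-fold apart. The log2 difference was 0.04 (SE 0.21, n = 3 per group, limma adjusted p = 0.965) over all arrays and -0.37 within slide 1. On the log2 scale the mean was 1.07 ± 0.12 in null samples and 1.03 ± 0.41 in wild-type samples relative to the 75th percentile (SD, n = 3 each). The array order of Cidea still resembled that of Ucp1, with replicate 2 of each genotype at the top and wild-type replicate 1 at the bottom.

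Adipoq encodes adiponectin, a hormone secreted by adipocytes. It had 25.3, 184 and 17.0 in null samples and 12.3, 95.1 and 27.4 in wild-type samples. Null replicate 2 was 8.87-fold above the geometric mean of the other null arrays, and wild-type replicate 2 was 5.18-fold above that of the other wild-type arrays. The log2 difference over all arrays was 0.43 (SE 1.14, limma adjusted p = 0.917). It was -1.15 within slide 1 and -0.62 without null replicate 2, so its sign depended on which arrays were read.

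Cfd encodes adipsin, a serine protease of the complement system released by fat (probe at mm9 chr10:79355302-79355361, + strand). It had 237, 2940 and 181 in null samples and 66.7, 790 and 201 in wild-type samples, the widest spread of the members at 44.0-fold. The high values were those of replicate 2 of each genotype, 14.2-fold over the other null arrays and 6.82-fold over the other wild-type arrays. The log2 difference was 1.19 (SE 1.37, limma adjusted p = 0.804) over all arrays, -0.65 within slide 1 and -0.08 without null replicate 2.

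Fabp4 encodes the fatty acid carrier of adipocytes, which macrophages and small-vessel endothelium also make. The probe that represented the gene, A_51_P336833 (mm9 chr3:10204452-10204511, - strand), had 434, 1953 and 288 in null samples and 143, 1039 and 216 in wild-type samples. The second probe, A_51_P336830, had 410, 1755 and 263 in null samples and 134, 948 and 198 in wild-type samples. The most distant probe, A_52_P564544, had 28.0, 151 and 22.8 in null samples and 22.5, 92.1 and 12.9 in wild-type samples. All 3 probes put null replicate 2 first and wild-type replicate 2 second, followed by null replicates 1 and 3. Their log2 differences were 0.98, 0.97 and 0.62, and for the gene the SE was 1.00 with a limma adjusted p of 0.787. Within slide 1 the first of these differences became -0.73.

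Retn encodes resistin, an adipokine that in mice is made mainly by white fat. Probe A_52_P55972, which represented the gene, had 61.2, 33.4 and 10.1 in null samples and 12.2, 27.2 and 14.3 in wild-type samples. Probe A_51_P233597 had 13.5, 35.1 and 14.3 in null samples and 8.62, 19.0 and 13.1 in wild-type samples. The probes disagreed on null replicate 1, which was the highest array at A_52_P55972 and below null replicate 3 at A_51_P233597. Their log2 differences were 0.71 and 0.56, with a gene-level SE of 0.70 and a limma adjusted p of 0.782. Within slide 1 the representing probe differed by 0.01 and the other probe by -0.005.

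Lep encodes leptin, the satiety hormone of white fat (probe at mm9 chr6:29023234-29023293, + strand). It was spotted 10 times on each array, and 2 of its 60 spots were well above background, 1 of which was an outlier spot. Its scaled intensity was 3.77, 4.199 and 3.43 in null samples and 2.84, 3.87 and 2.52 in wild-type samples. Lep was not well above background on any array, so it was not tested and no fold difference is given.

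The members that varied did so together. Over the 6 arrays the log2 signal of each gene was set against the mean of the other members: Pearson's r was 0.99 for Fabp4, 0.967 for Cfd, 0.947 for Ucp1 and 0.941 for Adipoq. It was 0.803 for Cidea and 0.557 for Retn. These are descriptions over 6 arrays that rest largely on replicate 2 of each genotype. Of the 6 genes tested, each at its representing probe, 4 were highest in null replicate 2 and 4 were second in wild-type replicate 2. Of all genes, 16.5% were highest in null replicate 2. The range over the arrays reached 3 log2 units or more in 4 of the 6 members tested (Cfd, Ucp1, Adipoq and Fabp4), against 1.6% of all genes. The median range was 3.84 log2 units for the members and 0.42 for all genes. For 2 of the 6 genes, Ucp1 and Fabp4, every slide 1 array was above both slide 2 arrays, a pattern found in 10.8% of genes.

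**Figure D2:**
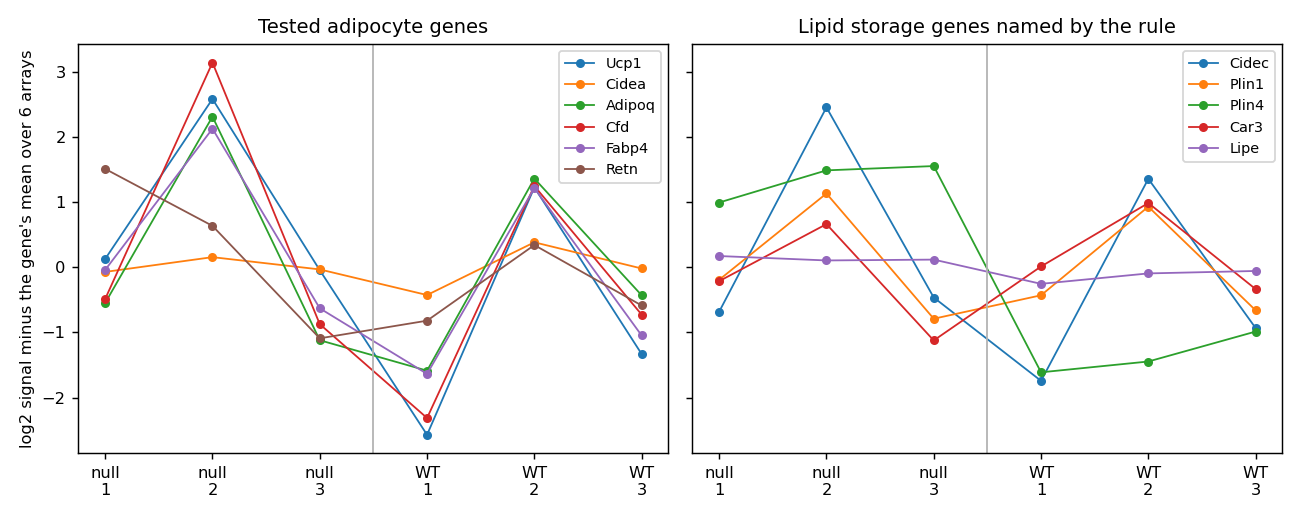
Log2 signal of each gene minus its mean over the 6 arrays, for the tested adipocyte genes (left) and the lipid storage genes named by rule (right), with lines joining 1 gene's arrays to guide the eye. Cfd, Ucp1, Adipoq, Fabp4 and Cidec share peaks in null replicate 2 and wild-type replicate 2, while Plin4 is higher in every null array than in every wild-type array.

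By genotype, the member genes had a median log2 difference of 0.84, beside 0.02 over all genes. All 6 tested members were above 0, as were 55.9% of all genes. Within slide 1 the median was -0.51, and 5 of the 6 members, all but Retn at its representing probe, were below 0. The share of all genes below 0 within slide 1 was not counted. The only wild-type array on slide 1 is replicate 2, which had the highest member mean of the wild-type arrays, so these signs rest on that array. No member passed the adjusted threshold under any of the alternative settings. The mean of the tested members, each centred on its own average, was 0.08, 1.83 and -0.63 log2 units in null samples and -1.56, 0.97 and -0.69 in wild-type samples. The means of null replicate 3 and wild-type replicate 3 were thus nearly level, and that of the highest wild-type array was above 2 of the 3 null arrays. Single members differed between null replicate 3 and wild-type replicate 3, and in both directions. Ucp1 was 80.2 in null replicate 3 and 32.8 in wild-type replicate 3, whereas Adipoq was 17.0 and 27.4.

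**Figure D3:**
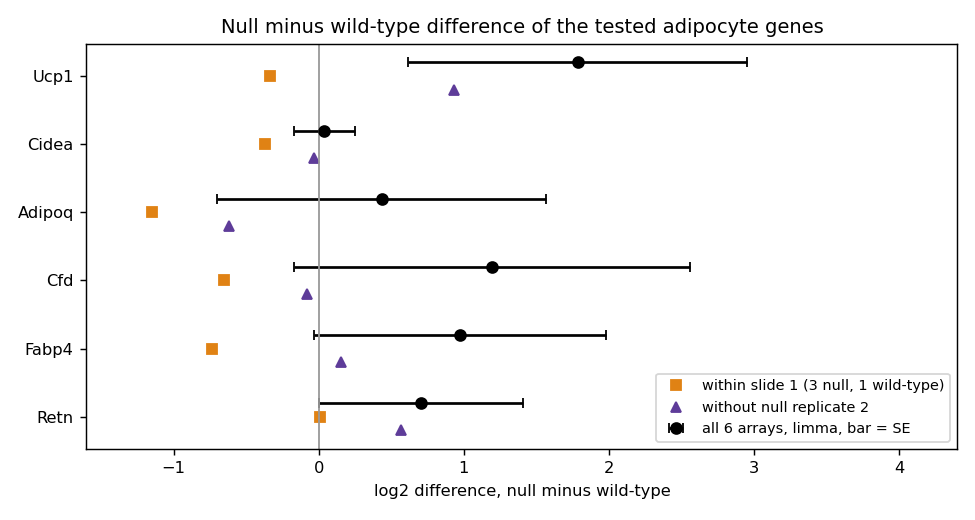
Log2 difference, null minus wild-type, of the 6 tested adipocyte genes over all arrays (circles, bars are the limma SE), within slide 1 (squares) and without null replicate 2 (triangles). All 6 circles lie above 0, while 5 of the 6 squares lie below it. The squares rest on 1 wild-type array, replicate 2.

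Other genes of brown fat had a smaller spread than Ucp1, with a median range of 0.65 log2 units over the arrays. Some were bright on every array, so a small range does not show how much fat added to their signal. Ppargc1a, looked at after the values were seen, had 6123, 6093 and 6312 in null samples and 7469, 6383 and 5371 in wild-type samples. The part of fat in these values was not tested. Of 20 listed brown fat and thermogenesis genes, 16 were tested: 0 passed the adjusted threshold, 8 were above 0 and 8 below, and the median log2 difference was 0.02. At an unadjusted p of 0.05, 0 were higher and 1 was lower in null samples: Acot2, a mitochondrial acyl-CoA thioesterase, with 106.8, 99.5 and 87.4 in null samples and 114.3, 126.3 and 116.6 in wild-type samples (adjusted p = 0.524). Adrb3, Bmp8b, Elovl3 and Otop1 were not well above background on enough arrays to be tested. Adrb3 is the adrenergic receptor that activates brown fat, and Elovl3 is a fatty acid elongase induced in it. Cox8b, a cytochrome c oxidase subunit shared by brown fat and muscle, had 1122, 1866 and 1388 in null samples and 1209, 2516 and 983 in wild-type samples, highest in wild-type replicate 2. Ebf2, a factor that marks brown fat precursors, had 1749, 1479 and 1509 in null samples and 1431, 916 and 1228 in wild-type samples, and its groups did not overlap (0.43, adjusted p = 0.561). Aspg, an asparaginase, had 935, 1421 and 1539 in null samples and 770.1, 1156 and 2029 in wild-type samples. Slc36a2, an amino acid transporter, had 227, 1071 and 585 in null samples and 2408, 247 and 546 in wild-type samples, highest where the members were lowest. It had the widest range of the list, 3.40 log2 units. Cpt1b, looked at after the values were seen, had 175, 228 and 185 in null samples and 157, 232 and 167 in wild-type samples. Its r with the member mean over the 6 arrays was 0.917, and that of Nrg4 was 0.774. Other genes of the list had r below 0, such as Prdm16 (-0.60) and Slc27a2 (-0.57).

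Genes of lipid storage and lipolysis split in their pattern. Of 25 listed genes 24 were tested (Pck1 was not on the array), 0 passed the adjusted threshold, 2 were higher and 0 lower at an unadjusted p of 0.05, and the median log2 difference was -0.0046. Cidec, which fuses lipid droplets in white fat, followed the members, with 65.9, 581 and 76.7 in null samples and 31.6, 271 and 55.4 in wild-type samples (r = 0.966 with the member mean over 6 arrays). Plin1, the droplet coat protein of adipocytes, had 23.0, 57.7 and 15.2 in null samples and 19.5, 50.2 and 16.6 in wild-type samples (r = 0.897). Both were highest in replicate 2 of each genotype and neither passed by genotype (limma adjusted p = 0.829 and 0.968). Car3, a carbonic anhydrase abundant in fat and muscle, had 849.8, 1560.0 and 452 in null samples and 993, 1953 and 781 in wild-type samples. Lipe, the hormone-sensitive lipase, had 614, 586 and 591 in null samples and 456, 510 and 523 in wild-type samples, a small difference with no overlap (0.27, SE 0.08, adjusted p = 0.490).

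Plin4, another coat protein of lipid droplets, behaved unlike the members. It had 4317, 6080 and 6364 in null samples and 708, 794 and 1092 in wild-type samples. Every null array was above every wild-type array, by 6.48-fold on the geometric means (log2 difference 2.70, SE 0.22, limma adjusted p = 0.115). The difference was 2.79 within slide 1 and 2.58 with null replicate 2 and wild-type replicate 2 left out. Its adjusted p was above 0.05 in all settings but limma's trended and robust variance, where it was 0.0487. Its r with the member mean over the 6 arrays was 0.391, and its 2 lowest arrays included wild-type replicate 2, where Ucp1 and Adipoq were second highest.

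The transcription factors of the adipocyte programme were nearly even over the arrays. All 9 listed were tested: 5 were above 0 and 4 below, 0 passed the adjusted threshold, 2 were higher and 0 lower at an unadjusted p of 0.05, and their median range was 0.45 log2 units beside 3.84 for the members. Ebf1 had 1303, 1254 and 1379 in null samples and 1197, 772 and 977 in wild-type samples (0.44, adjusted p = 0.534). Klf15 had 4574, 3824 and 4127 in null samples and 3092, 3378 and 3842 in wild-type samples (0.28, adjusted p = 0.558). Cebpb and Nr1h3 varied by 1.52-fold and 1.37-fold over the 6 arrays. Pparg, the master regulator of fat cell formation, and Cebpa, its partner, were looked at after the values were seen. Pparg had 279, 298 and 292 in null samples and 301, 351 and 289 in wild-type samples, with its highest value in wild-type replicate 2. Cebpa had 312, 313 and 327 in null samples and 243, 307 and 285 in wild-type samples, lowest in wild-type replicate 1.

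Genes of white fat and other adipokines had a median range of 0.99 log2 units over the arrays. Of 16 listed genes 13 were tested, 7 above 0 and 6 below with a median of 0.07. None passed the adjusted threshold with limma, and 1 was higher and 1 lower at an unadjusted p of 0.05. Adig, Lgals12 and Tcf21 were not well above background on enough arrays. Retnla, a relative of resistin made by alternatively activated macrophages and by white fat, was the lower one, with 70.4, 40.9 and 31.4 in null samples and 154, 81.2 and 108 in wild-type samples (-1.30, adjusted p = 0.472). Agt, the angiotensin precursor made by fat and by astrocytes, was the higher one (0.27, adjusted p = 0.534). Trarg1, a regulator of the glucose transporter in fat, had 23.4, 30.1 and 274.7 in null samples and 33.0, 19.0 and 18.2 in wild-type samples. Its single high array was null replicate 3, where the members were low.

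The list means set the members beside other fat genes and genes of other tissues. The mean centred signal over brown fat genes lay between -0.11 and 0.13 in null arrays and between -0.05 and 0.06 in wild-type arrays, where the members spanned -0.63 to 1.83 in null arrays and -1.56 to 0.97 in wild-type arrays. The lipid storage genes had means of -0.01, 0.30 and -0.09 in null arrays and -0.24, 0.21 and -0.17 in wild-type arrays, the same array order as the members at a smaller size. Among lists of other cell types, 14 blood and marrow leukocyte genes were also highest in null replicate 2, with means of 0.83, 1.69 and -0.40 in null samples and -0.13, -0.64 and -1.35 in wild-type samples. All 14 were above 0 by genotype, with a median of 1.24, and 12 of the 14 were highest in null replicate 2. Their example Ctsg, cathepsin G of neutrophils, had 464, 1930 and 289 in null samples and 236, 172 and 88.8 in wild-type samples. Elane, neutrophil elastase, had 55.9, 189 and 25.1 in null samples and 27.6, 18.2 and 4.25 in wild-type samples. In wild-type replicate 2, the second highest array of the adipocyte genes, the leukocyte mean was below 0.

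**Figure D4:**
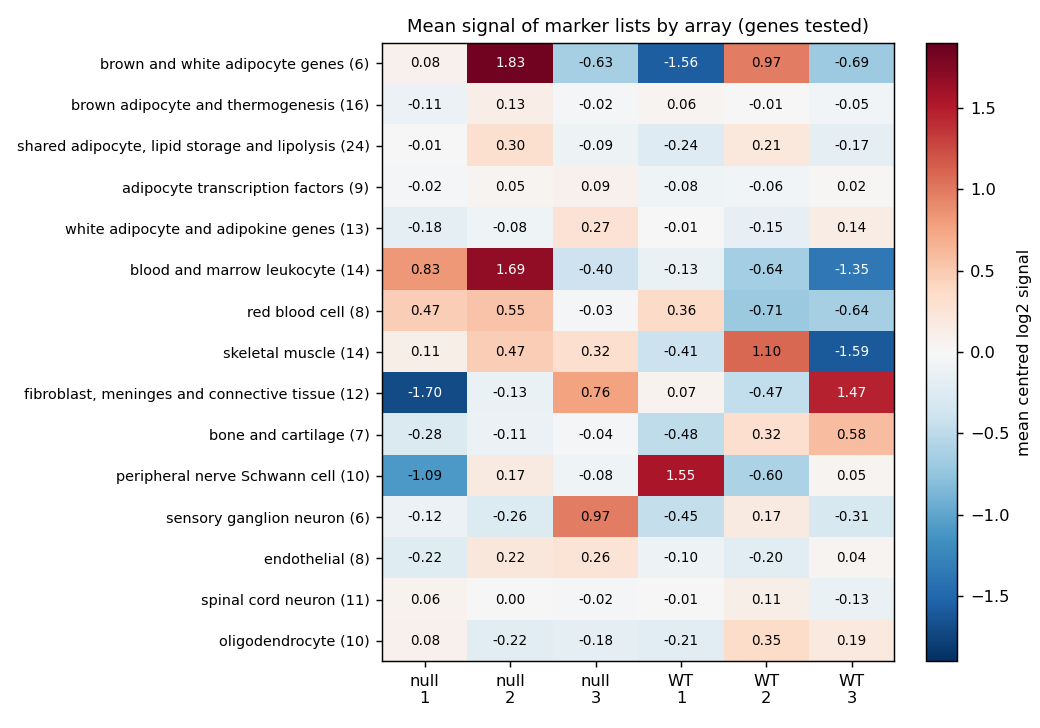
Mean over each list of the log2 signal centred on the gene's average over the 6 arrays, for the tested adipocyte genes (top row) and 14 marker lists, with the number of genes tested in brackets. The adipocyte genes are highest in null replicate 2 (1.83) and wild-type replicate 2 (0.97), the leukocyte genes in null replicate 2 (1.69) and the muscle genes in wild-type replicate 2 (1.10).

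The mean of the skeletal muscle genes was highest in wild-type replicate 2. The 14 tested had means of 0.11, 0.47 and 0.32 in null samples and -0.41, 1.10 and -1.59 in wild-type samples. Their example Myh2, a myosin heavy chain, had 1447, 1920 and 2248 in null samples and 627, 7476 and 594 in wild-type samples. Atp2a1, the calcium pump of fast muscle, had 1152, 1264 and 1542 in null samples and 616, 1829 and 212 in wild-type samples. The 8 red blood cell genes had their highest mean in null replicate 2 (0.55) and their lowest in wild-type replicate 2 (-0.71). Their example Ahsp varied 3.92-fold over the arrays.

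The list means of connective tissue and nerve genes were highest elsewhere. The 12 fibroblast and meningeal genes had means of -1.70, -0.13 and 0.76 in null samples and 0.07, -0.47 and 1.47 in wild-type samples, and Dpt and Ogn ranged widest, 17.8-fold and 13.8-fold. The mean of the 10 Schwann cell genes of peripheral nerve was highest in wild-type replicate 1 (1.55), the array lowest in the members. Mal, of this list, was lowest there (8270) and highest in wild-type replicate 3 (11357). The mean of the 7 bone and cartilage genes tested was highest in wild-type replicate 3 (0.58), where Matn3 stood at 133. Matn3, with the widest range of that list, had 4.76, 3.26 and 34.9 in null samples and 2.19, 18.8 and 133 in wild-type samples. Col2a1 was also highest in wild-type replicate 3. Dmp1, Col9a1 and Acan were highest in wild-type replicate 2, Bglap in null replicate 2 and Chad in null replicate 3. The mean of the 6 sensory ganglion genes was highest in null replicate 3 (0.97), with Avil at 10.5, 11.7 and 132 in null samples and 12.9, 11.4 and 15.0 in wild-type samples. Avil, Scn10a, Isl1 and P2rx3 were highest in null replicate 3. Calca and Prph were highest in wild-type replicate 2, at 18258 and 2433. Of the genes named from these lists, Elane was well above background on 5 arrays, Matn3 on 3 and the others on all 6. Genes placed here only by their highest array were looked at after the values were seen. The part of these tissues, or of the slide, in the adipocyte values was not tested. The 11 spinal cord neuron genes were nearly level, between -0.02 and 0.06 in null samples and between -0.13 and 0.11 in wild-type samples, and the 10 oligodendrocyte genes lay between -0.22 and 0.08 in null samples and between -0.21 and 0.35 in wild-type samples.

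Across the whole array, 246 genes other than the members had a range of at least 3 log2 units and a current symbol, and they were ranked by r with the member mean over the 6 arrays. Cidec ranked first, and with Olfr1276 it made up the 2 genes above 0.9. The next 10 after Cidec, with r between 0.743 and 0.949, were Olfr1276, Olfr615, Apoa2, Phlda2, Trex2, Itgb2l, Tigd3, Trhr2, F10 and Csrp3. Of these, 9 were highest in null replicate 2. The member mean used to choose them is itself highest there, so this count follows largely from the choice. Several were dim, with Phlda2 and Trex2 well above background on 3 arrays and Olfr1276 and Apoa2 on 4. Apoa2, an apolipoprotein of high-density lipoprotein, had 31.5, 52.0 and 26.1 in null samples and 3.88, 34.1 and 6.28 in wild-type samples. F10, clotting factor X, had 61.2, 174 and 36.3 in null samples and 16.0, 22.8 and 13.1 in wild-type samples, the only gene of the 10 whose groups did not overlap (2.11, adjusted p = 0.467). Csrp3, a muscle LIM protein, was the gene of the 10 that was highest in wild-type replicate 2, with 32.1, 57.2 and 49.8 in null samples and 13.6, 128 and 12.3 in wild-type samples.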

How the data were processed

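Spinal cord RNA was measured on 6 single-colour arrays (design 014868), 3 Dhtkd1 null and 3 wild-type, grouped by the labels. Per the file headers, the deposited intensity of each spot was made with Agilent Feature Extraction 10.7.3.1, background-subtracted and detrended within the array. The deposited value table is in log2 units by a method that is not given in the sources used here. Each of its columns followed its own array, all medians were 7.22, and it served as an alternative only. Scale and centring were read from its values.

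Signals were log2 processed intensity minus the array's 75th percentile. Control and outlier spots were left out and repeated spots averaged. A probe well above background on at least 3 of 6 arrays was kept (33190 of 41174; 8 of these were dropped because an array had only outlier spots), and a gene was its brightest kept probe (21436 genes). Current symbols came from a RefSeq table through accessions (27668 probes) or synonyms (471). Genotypes were compared with limma 3.58.1 (lmFit, eBayes, 2-sided) in R 4.3.3, Benjamini-Hochberg adjusted over all genes. Probe-level values come from the same fit over all kept probes. The fit was tested on simulated data. The number of arrays limits the precision.

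The members and lists were chosen with earlier results of these data known. Genes were named by rule: all members; from each adipocyte list the 4 of largest range and the 2 of smallest p; from each other list the 2 of largest range, where described; and the 10 most correlated with the member mean. An item within this rule is not reported here. Slides were read from barcodes. The labels state no pairing by replicate number. Deviations of same-numbered arrays correlated at -0.02, -0.11 and 0.33, which does not settle whether the samples are paired. Alternatives were quantile normalization, median centring, normexp with offset 50, the value table, filters of none and all 6 arrays, outlier spots kept, mean of probes, slide blocks, slide 1 alone, trended robust variance, a replicate block and each array left out. Omitting null replicate 2 and wild-type replicate 2 together was added after seeing the data.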

Additional observations from a re-analysis of the deposited data

How the results depend on the processing

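No adipocyte gene passed the adjusted threshold in any setting, with limma adjusted p between 0.487 and 0.998, and Retn kept its direction in all 20 alternatives. With slide as a fixed block, or with slide 1 alone, the differences turned to -0.34 for Ucp1, -0.73 for Fabp4, -0.65 for Cfd, -0.37 for Cidea and -1.15 for Adipoq, and the members' median to -0.51. These settings rest on 1 wild-type array, replicate 2, which had the highest member mean of its genotype. Leaving out each array in turn gave member medians of 0.06 to 1.53. Without null replicate 2, Adipoq was -0.62, Cfd -0.082 and Cidea -0.03, and without wild-type replicate 1, Adipoq was -0.25 and Cidea -0.17. Cidea was -0.014 after median centring. The ranges with 1 array left out were -0.62 to 1.22 for Adipoq, -0.08 to 2.12 for Cfd, -0.17 to 0.24 for Cidea, 0.94 to 2.84 for Ucp1, 0.15 (without null replicate 2) to 1.83 (without wild-type replicate 2) for Fabp4 and 0.13 (without null replicate 1) to 1.43 (without null replicate 3) for Retn. With the replicate block, Ucp1 kept 1.78 (adjusted p = 0.514) and Fabp4 0.98 (adjusted p = 0.532), and the block changed no member's adjusted call. At an unadjusted p of 0.05, Ucp1 and Fabp4 passed with the block and also with null replicate 2 and wild-type replicate 2 left out, Ucp1 passed without wild-type replicate 2 and Retn without null replicate 3. The labels state no pairing by replicate number, and with both arrays left out genotype and slide cannot be told apart. Over all genes at that p and at least 2-fold, 136 were higher and 51 lower with the block. With both arrays left out, 148 were higher and 72 lower. The counts were 169 and 60 without wild-type replicate 2, and 160 and 59 without null replicate 3. These counts also require a 2-fold difference, which the member calls do not. Fabp4 with the block, at a log2 difference of 0.98, was under 2-fold and is not among the 136. Shares of all genes by p alone were not counted in these settings, so the member calls have no like background here.

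Over all genes, 0 were higher and 0 lower at the adjusted threshold, 0 in each direction also with the replicate block. Cyp4f15 alone was higher with the authors' value table, quantile normalization, median centring, normexp or the filter on all 6 arrays (1 gene each), and 4 genes (Cyp4f15, Gdpd3, Plin4 and Stk25) with trended robust variance. These names were taken after their values were seen. With 1 array left out, 0 to 1 were higher (Scgb3a1, without null replicate 1) and 0 to 2 lower (without null replicate 2). At an unadjusted p of 0.05 and at least 2-fold, 104 genes were higher and 42 lower. The counts were 184 and 86 without the filter and 32 and 10 with normexp. The lower count was 122 on slide 1 alone, 123 with the slide block and 72 without null replicate 2 and wild-type replicate 2. With 1 array left out the counts were 90 to 169 higher and 42 to 60 lower. The causes were not tested. Signal over background limits Lep, which gives no difference. Other members were dim on some arrays. In wild-type replicate 1 the processed signal was 14.0 for Ucp1 and 12.4 for Adipoq. The lowest signal well above background on that array was 7.38. With normexp the log2 differences were 0.87 for Ucp1, 0.22 for Adipoq and 0.32 for Retn. They were 0.97 for Cfd, 0.80 for Fabp4 and 0.01 for Cidea.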

Other observations

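Some fat genes outside the members were highest on arrays other than null replicate 2 and wild-type replicate 2, where Ucp1 and Adipoq were highest. Slc36a2 (2408) and Wt1 (62.1), a factor of the mesothelium and of visceral fat precursors, were highest in wild-type replicate 1, the array with the highest Schwann cell mean (1.55). Wt1 had 14.7, 29.8 and 15.3 in null samples and 62.1, 18.7 and 17.4 in wild-type samples. Rbp4, the retinol carrier secreted by liver and fat, had 1819, 5108 and 9204 in null samples and 2773, 3293 and 16730.0 in wild-type samples. Its highest array was wild-type replicate 3, which also had the highest mean of fibroblast and meningeal genes (1.47).

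Trarg1 stood at 274.7 in null replicate 3, where the sensory neuron genes Avil and Scn10a were also at their highest, at 132 and 145. Of the same list, Calca and Prph were highest in wild-type replicate 2 instead. Scn10a, a sodium channel of pain-sensing neurons, had 28.8, 35.8 and 145 in null samples and 21.1, 29.4 and 20.0 in wild-type samples.

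Retnlg, a relative of resistin made by neutrophils and looked at after its values were seen, had 1771, 1346 and 465 in null samples and 868, 536 and 335 in wild-type samples. It was highest in null replicate 1, as was the Retn probe A_52_P55972 (61.2). The other Retn probe was highest in null replicate 2 (35.1).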
